A study of Arabidopsis thaliana with 148 samples.

Results

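The ribosome-bound messages of Arabidopsis thaliana seedlings after 1 h of heat in the subjective midnight were described from 6 of the 148 libraries of the series: 3 of heated seedlings and 3 of their controls, all taken at Zeitgeber time (ZT) 66. Seedlings carried p35S:HF-RPL18, a tagged ribosomal protein L18 driven by the near-ubiquitous 35S promoter. Ribosomes were pulled down by the tag with the messages on them (translating ribosome affinity purification, TRAP), and polyadenylated RNA was sequenced. The heat group had 1 h at 37 °C from ZT65 to ZT66, and the control group stayed at 22 °C. Both were whole seedlings on day 13 after sowing, which saw 10 days of 12 h light alternating with 12 h darkness (22 °C) before a move to constant light on day 11, so ZT66 lay in the night of the entrained cycle while the lamps were on. They were set against 41 TRAP libraries of heat and control at 7 other times (ZT48 to ZT63 and ZT69, in steps of 3 h, 2 or 3 libraries a group) and against 6 libraries of total polyadenylated RNA (total mRNA), heat and control, at ZT66. Whether replicate libraries stem from cultures grown apart is not stated in the labels. The p-values below measure no more than the spread between these libraries, which may be technical.

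In plants, heat shock factors (HSFs) bind heat shock elements and switch on chaperones, which hold or refold proteins that heat unfolds. The circadian clock is a loop of repressors that act in turn over the day: CCA1 and LHY around dawn, then the pseudo-response regulators PRR9, PRR7, PRR5 and TOC1, then the evening complex of ELF3, ELF4 and LUX. The clock sets when many messages are made, among them those of growth factors such as PIF4 and of the light-harvesting proteins, whose levels are low in the night. The amount of a message on tagged ribosomes depends both on how much of it the cell holds and on how much of that is being translated.

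Total counts were 4613598 to 6709461 in the 6 TRAP libraries at ZT66 and 1580228 to 7341722 in the 6 total mRNA libraries at ZT66. TRAP libraries from ZT60 to ZT72 were shallower (median 5902330.5 counts) than those from ZT48 to ZT57 (median 9398937). Genes of the chloroplast and mitochondrial genomes took 0.140% to 0.698% of the counts of TRAP libraries and 15.36% to 37.1% of total mRNA libraries of the time course. Shoot and root markers were both present: the summed level of 3 shoot markers was 22681 to 23930 CPM (counts scaled by library size) in heated and 21373 to 22254 CPM in control TRAP libraries, and that of 9 root markers 21.6 to 23.3 CPM and 33.3 to 37.2 CPM. In total mRNA the root sum was 37.2 to 43.8 CPM in heated and 57.1 to 64.9 CPM in control libraries. The root hair marker RHD6 had 0 counts in the 3 heated TRAP libraries and 5, 2 and 1 counts in the controls, while SHR, of the root stele, stood at 10.5 to 12.9 CPM in heated and 10.0 to 14.1 CPM in control TRAP libraries. The part of tissue makeup in the results was not tested, and in whole seedlings fewer cells of a type and less RNA per cell cannot be told apart. No 2 libraries of a group at ZT66 differed by as little as sampling noise (chi-square per degree of freedom of 3.15 to 32.6).

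The first comparison asked which messages gained or lost a place on ribosomes in the hour of heat before ZT66. Of 21079 genes tested, 5266 were higher in heated than in control TRAP libraries (25%) and 5555 were lower (26.4%), at an adjusted p below 0.05 (edgeR quasi-likelihood test, adjusted by Benjamini and Hochberg), which makes 51.3% in either direction. Chaperone messages were a large part of the heated pool: the 47 genes of the small heat shock protein and large chaperone lists held 23.9% to 25.9% of all counts in heated TRAP libraries, against 0.375% to 0.431% in controls. The gene lists were chosen with earlier results of these data known. The use of strand in counting is not stated, so genes that overlap another annotated gene may hold reads of their neighbour. Among them are HSP101, MBF1C, LNK1, BBX24, EGY3 and DEG14.

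Among the small heat shock proteins, which hold unfolding proteins, 15 of 16 rose and the member HSP15.4 fell (a call lost without heated library 1), with a median log2 fold change of 12.35, against a median of -0.08 over all genes. HSP21 (AT4G27670), a chloroplast member, stood at 2528, 2412 and 3060 CPM in heated TRAP libraries and at 0.139, 0.259 and 0.374 CPM in controls. The controls rest on 7 counts in all, and the fitted log2 fold change was 13.17 ± 1.27 (SE, adjusted p = 8.15e-11). HSP17.6-CII (AT5G12020), a cytosolic class II member, stood at 19126, 18483 and 19846 CPM in heated libraries and at 1.39, 2.85 and 1.78 CPM in controls (log2 fold change 13.20 ± 1.61, adjusted p = 1.74e-08). Heated and control libraries did not overlap for either gene.

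The large chaperones rose in 30 of 31 cases, with a median of 4.62, and mtHSC70-1, a mitochondrial HSP70, did not pass the test. HSP101 (AT1G74310), the disaggregase that pulls proteins out of clumps, stood at 7740, 7660 and 9729 CPM in heated libraries and at 8.76, 8.80 and 7.49 CPM in controls (log2 fold change 9.96 ± 0.84, adjusted p = 3.25e-12). HSP90.1 (AT5G52640) rose by 9.84 ± 0.91 and HSP70-4 (AT3G12580) by 8.24 ± 0.44 on the log2 scale. ROF2 (AT5G48570), an immunophilin that binds HSP90, rose by 11.32 ± 1.08. Among the heat shock factors 12 of 20 rose and HSFC1 fell, with HSFA7B counted as risen from 0 counts in all 3 controls. HSFA2 (AT2G26150), which sustains the response, stood at 3153, 3052 and 3672 CPM in heated libraries and at 1.25, 0.906 and 0.936 CPM in controls (log2 fold change 11.63 ± 1.16, adjusted p = 1.76e-10). HSFB1 (AT4G36990), a repressor of other HSF targets, rose by 5.52 ± 0.15. The co-activator MBF1C (AT3G24500) rose by 8.05 ± 0.40 and the drought and heat factor DREB2A (AT5G05410) by 5.90 ± 0.17. The ascorbate peroxidase APX2 (AT3G09640), which removes hydrogen peroxide, rose by 12.83 ± 0.99 against controls that hold 5 counts.

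All 17 tested genes of protein folding in the endoplasmic reticulum rose, with a median of 2.41. The lumenal HSP70 gene BIP1 (AT5G28540) rose by 4.26 ± 0.18 and its co-chaperone ERDJ3A (AT3G08970) by 8.95 ± 0.40. Of 23 light-harvesting and Rubisco genes 18 rose and 2 fell (LHCB2.3, and RBCS1B with a call lost when some single libraries were left out), and of 26 B-box and CDF transcription factors 16 rose and 4 fell. The dehydrins COR47 (AT1G20440) and ERD10 (AT1G20450) rose by 3.67 ± 0.12 and 3.30 ± 0.14.

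Fewer lists were lower in heated seedlings. Of 15 genes of aliphatic glucosinolates, methionine-derived defence compounds that hold sulfur, 13 fell and none rose, with a median of -1.79 against -0.08 over all genes. SUR1 (AT2G20610), the C-S lyase of the pathway, stood at 15.3, 14.98 and 11.1 CPM in heated libraries and at 94.5, 102 and 106 CPM in controls (log2 fold change -2.89 ± 0.17, adjusted p = 4.26e-21). FMOGS-OX1 (AT1G65860), which oxidises the side chain, fell by 4.06 ± 0.28 on the log2 scale. The expansins EXPA8 (AT2G40610) and EXPA11 (AT1G20190), which loosen cell walls, fell by 4.70 ± 0.24 and 4.82 ± 0.26. Of 20 genes of DNA replication and mitosis 12 fell and 2 rose, and the mitotic cyclin CYCB1;2 (AT5G06150) fell by 3.23 ± 0.39. All 4 tested genes of nitrate uptake and assimilation fell, and NIA1 (AT1G77760), a nitrate reductase, had a log2 fold change of -1.74 ± 0.23. Of 15 translation factors 3 rose and 4 fell, where 25% of all genes rose and 26.4% fell. RPL18 (AT3G05590), the gene of the protein that carries the tag, stood at 5380, 4880 and 6251 CPM in heated libraries and at 3341, 3908 and 3896 CPM in controls (log2 fold change 0.56 ± 0.16, adjusted p = 0.00287). Its reads include any from the transgene that map there.

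The second comparison asked which of these responses were particular to ZT66, by testing the heat effect at ZT66 minus its mean over the 7 other times within TRAP. The difference passed for 191 of 21079 genes (0.906%), of which 65 were higher (0.308%) and 126 lower (0.598%) at ZT66. The 2 parts of the difference were tested side by side: the level in controls at ZT66 minus controls at the other times, and the level in heated seedlings at ZT66 minus heated seedlings at the other times. Control levels differed for 3976 genes (18.9%) and heated levels for 3339 genes (15.8%). A heat effect that is higher at ZT66 can come from a lower control, a higher heated level or both, and the parts are given for each gene below. Without heated TRAP library 1 or 2 the difference passed for 96 or 94 genes, without control TRAP library 1, 2 or 3 for 111, 118 or 126, and without heated TRAP library 3 for 250. Without control library 2 the control levels differed for 2569 genes, and without heated library 1 or 2 the heated levels for 1884 or 1843.

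**Figure D1:**
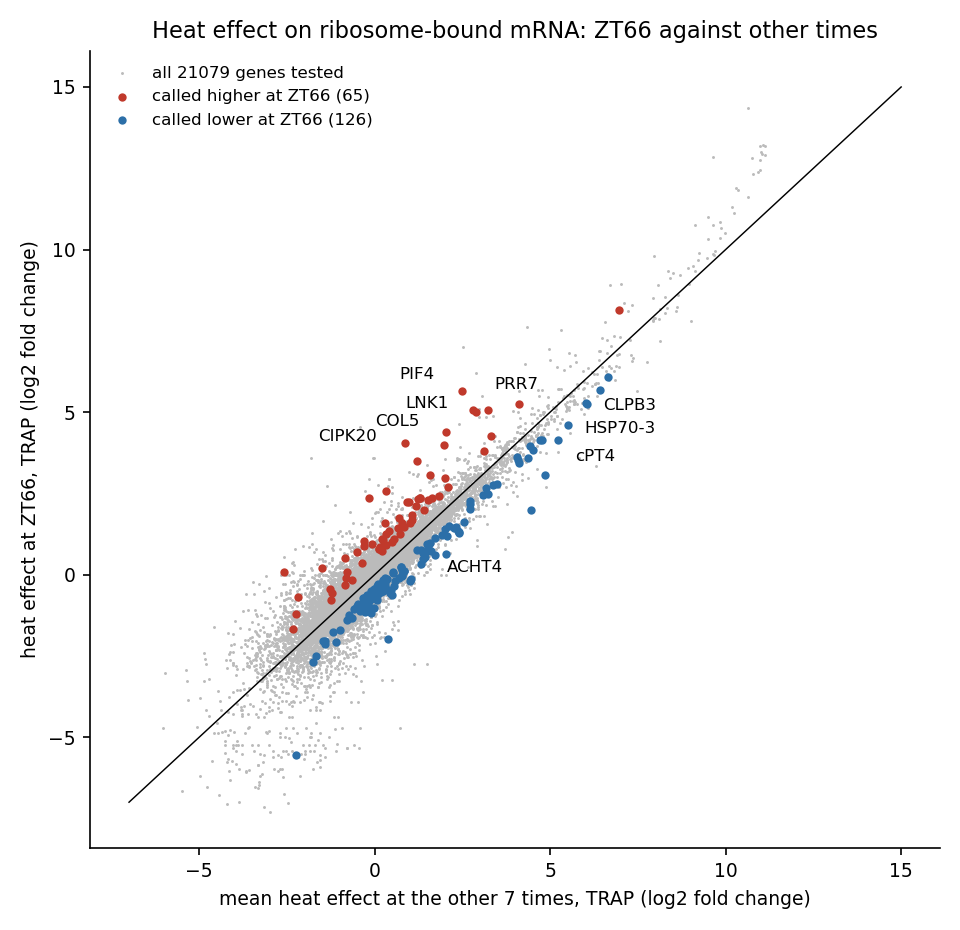
Each point is 1 of 21079 genes in TRAP mRNA, with the mean log2 fold change of heat over control at the 7 other times on the horizontal axis and that at ZT66 on the vertical axis. Most genes lie along the diagonal (black line). The 65 genes called higher at ZT66 (red) lie above it and the 126 called lower (blue) lie below it, with PIF4, LNK1, PRR7, COL5 and CIPK20 labelled above and CLPB3, HSP70-3, cPT4 and ACHT4 below.

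Of the 65 genes higher at ZT66, 47 had a lower control level at ZT66 than at the other times (7.32% of all genes did), 2 a higher one and 16 neither. Their heated level was higher in 23 (7.59% of all genes), lower in 21 (8.25% of all genes) and not called in 21. The control part was the larger of the pair in 45 genes. Of the 126 genes lower at ZT66, 91 had a higher control level (11.5% of all genes did) and 3 a lower one, and the heated level was lower in 47 and higher in 21. These shares are read with the caution that the parts and the difference share their libraries. The effect at ZT66 lay beyond those of all 7 other times in 43 of the 65 and 118 of the 126 genes. Since the genes were called against the mean of these same times, that count is largely set by the choice.

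**Figure D2:**
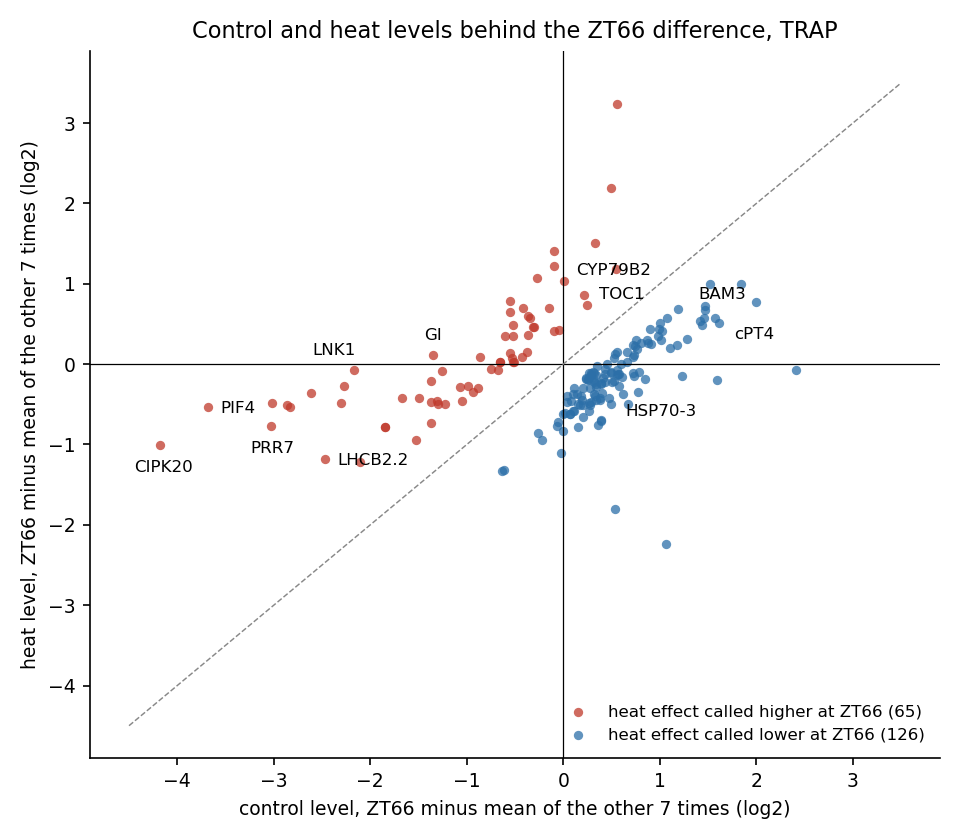
Points are the genes called between ZT66 and the other times in TRAP mRNA, with the control level at ZT66 minus its mean at the other 7 times (log2) on the horizontal axis and the same for heated seedlings on the vertical axis. Genes higher at ZT66 sit mostly to the left, at low control levels (median -0.68), and genes lower at ZT66 mostly to the right (median 0.43), while heated levels have medians of 0.03 and -0.18.

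PIF4 (AT2G43010), a bHLH factor that drives growth of the stem in warmth and at dawn, had the largest difference among the genes higher at ZT66 but for CIPK20. It stood at 135, 136 and 140 CPM in heated TRAP libraries at ZT66 and at 1.81, 2.46 and 3.56 CPM in controls, a log2 fold change of 5.64 ± 0.16 (adjusted p = 1.02e-37). At the other times the fold change ran between 1.37 (ZT54) and 4.39 (ZT69), and the difference from their mean was 3.15 ± 0.17 (adjusted p = 2.01e-21). The control mean at ZT66, 2.61 CPM, lay under the 6.25 to 95.5 CPM of the other control times, whereas the heated mean, 137 CPM, lay within the 133 to 255 CPM of the other heated groups. PIF5 (AT3G59060), its close relative, stood at 53.7, 47.1 and 53.4 CPM in heated libraries and at 7.23, 12.3 and 12.7 CPM in controls, and its effect was higher than at the other times by 1.26 ± 0.15 (adjusted p = 3.96e-08). Of the 14 genes of the PIF and growth list these 2 were higher at ZT66 (0.308% of all genes were) and none was lower.

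The clock list held 9 genes of 30 with a higher heat effect at ZT66 and 2 with a lower one. Over all genes 0.308% were higher and 0.598% lower. Day-phased members led. PRR7 (AT5G02810) stood at 79.6, 72.9 and 89.3 CPM in heated libraries and at 2.78, 1.55 and 2.71 CPM in controls (log2 fold change 5.07 ± 0.16), higher than at the other times by 2.26 ± 0.18 (adjusted p = 5.16e-15). PRR9 (AT2G46790), the earliest of the family, stood at 23.3, 29.0 and 35.5 CPM in heated libraries against 0.834, 1.29 and 0.562 CPM in controls, which are 6, 10 and 6 counts, and was higher by 1.83 ± 0.37 (adjusted p = 0.00407), a call that was lost without control library 3, where the difference was 1.52. For both genes the controls at ZT66 were lower than those of every other time, and heated levels were lower than at the other times by 0.77 ± 0.09 (PRR7) and 0.48 ± 0.14 (PRR9) on the log2 scale.

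LNK1 (AT5G64170), one of a family of light-induced co-activators of the clock, stood at 221, 221 and 247 CPM in heated libraries and at 8.06, 7.64 and 6.08 CPM in controls. Its log2 fold change of 4.99 ± 0.12 was higher than at the other times by 2.102 ± 0.124 (adjusted p = 4.33e-20), with a heated level that differed from the other times by -0.07 ± 0.07 (adjusted p = 0.585). LNK3 (AT3G12320) and LNK4 (AT5G06980) were higher by 2.01 ± 0.21 and 2.29 ± 0.25, while for LNK2 (AT3G54500) the difference was 0.21 ± 0.19 (adjusted p = 0.760). GI (AT1G22770), a protein that stabilises other clock components in the evening, stood at 30.8, 38.3 and 36.8 CPM in heated libraries and at 5.84, 3.75 and 3.37 CPM in controls, higher than at the other times by 1.47 ± 0.19 (adjusted p = 4.07e-07). CHE (AT5G08330), a factor that binds the CCA1 promoter, was higher by 0.54 ± 0.14 (adjusted p = 0.0365), a call that was lost without 5 of the 6 libraries when these were left out singly.

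The members that were lower at ZT66 were RVE1 (AT5G17300) and RVE2 (AT5G37260), MYB factors related to CCA1, at -0.69 ± 0.13 and -0.88 ± 0.11. CCA1 (AT2G46830), LHY (AT1G01060), LUX (AT3G46640) and ELF4 (AT2G40080) did not pass, with differences of -0.02 ± 0.14, 0.09 ± 0.14, -0.05 ± 0.13 and -0.17 ± 0.13. The heat effect of these 4 at ZT66 was 1.33 ± 0.14 for CCA1, -0.50 ± 0.13 for LHY, 1.09 ± 0.12 for LUX and -1.32 ± 0.12 for ELF4, all past the test. CCA1 and LHY, which act as a pair, thus moved in opposite directions on ribosomes at ZT66.

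**Figure D3:**
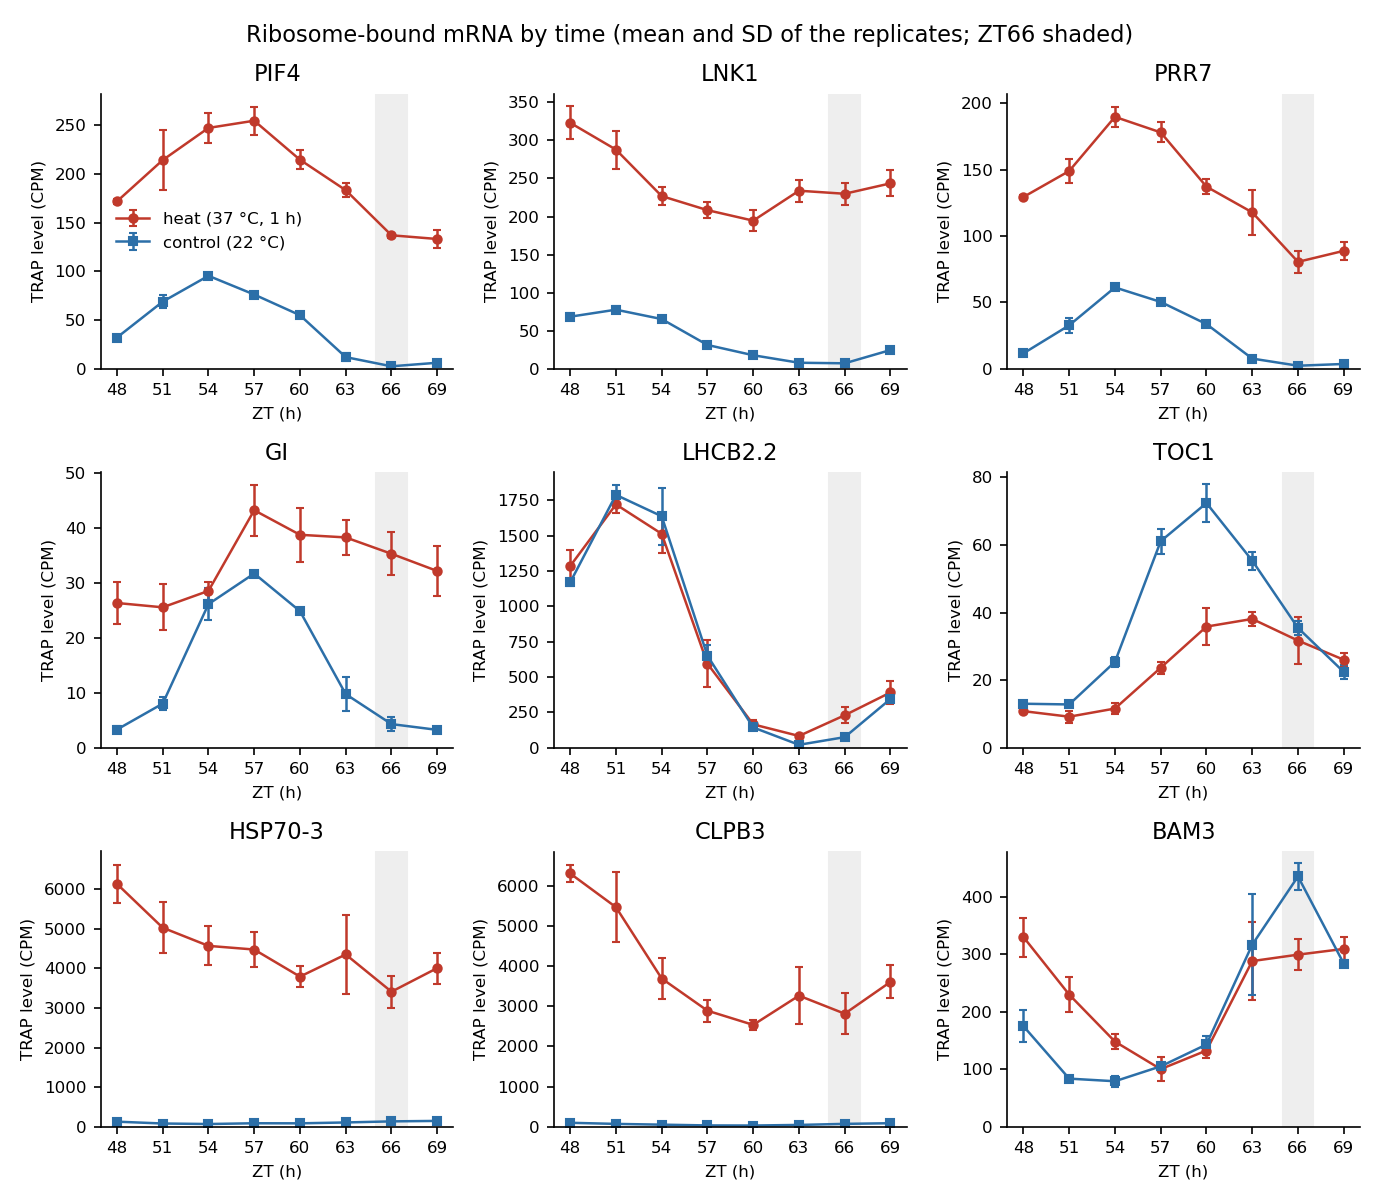
Each panel shows 1 gene in TRAP mRNA from ZT48 to ZT69, in CPM, with heated seedlings as red circles and controls as blue squares (means, bars are SD, n = 3, or 2 for controls at ZT60; ZT66 is shaded). At ZT66 the controls of PIF4, LNK1 and PRR7 are at the bottom of their daily range and those of GI and LHCB2.2 near it, while the control of BAM3 is at the top of its range.

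TOC1 (AT5G61380), the evening member of the pseudo-response regulators, differed in another way. It stood at 29.4, 26.3 and 39.4 CPM in heated TRAP libraries and at 33.8, 34.9 and 37.6 CPM in controls, groups that overlap (log2 fold change -0.17 ± 0.12, adjusted p = 0.237). Its effect at the other times ran between -1.37 (ZT57) and 0.19 (ZT69), and the difference of ZT66 from their mean was 0.49 ± 0.13 (adjusted p = 0.0438). The call was lost when heated library 1 or 3 or any of the 3 control libraries was left out, and without heated library 3, the highest of its group, the difference was 0.29. Here the heated level at ZT66 was higher than at the other times by 0.73 ± 0.10 and the control level by 0.24 ± 0.08. PRR5 (AT5G24470) stood at 20.01, 17.68 and 25.9 CPM in heated libraries against 9.04, 8.15 and 7.68 CPM in controls, and its difference of 0.96 ± 0.20 (adjusted p = 0.0029) went with a heated level higher by 0.59 ± 0.14. Without heated library 3 the difference of PRR5 was 0.78 and not called.

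Promoters of these genes are shown because clock proteins such as CCA1 bind the evening element. The windows are the 250 bases before the annotated start in RefSeq (assembly TAIR10.1), 5′ to 3′ on the strand of the gene, with capitals at matches to the evening element (AAAATATCT), the CCA1 binding site (AAAAATCT), the G-box (CACGTG) and the heat shock element (GAA, TTC and GAA, each 2 bases from the next) on either strand. The windows are those of TOC1 (chr5:24674713-24674962, plus strand), PRR5 (chr5:8358547-8358796, minus strand), the B-box gene BBX24 (chr1:1829984-1830233, minus strand) and PRR7 (chr5:642031-642280, minus strand).
TOC1: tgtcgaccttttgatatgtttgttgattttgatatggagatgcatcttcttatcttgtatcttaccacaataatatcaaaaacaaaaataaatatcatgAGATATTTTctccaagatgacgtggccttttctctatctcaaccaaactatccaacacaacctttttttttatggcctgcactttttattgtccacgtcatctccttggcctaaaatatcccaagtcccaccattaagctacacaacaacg
PRR5: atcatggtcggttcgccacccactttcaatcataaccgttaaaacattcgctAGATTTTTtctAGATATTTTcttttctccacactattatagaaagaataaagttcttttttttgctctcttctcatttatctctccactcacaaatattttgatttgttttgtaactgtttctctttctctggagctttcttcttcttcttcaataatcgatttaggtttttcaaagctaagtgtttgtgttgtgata
BBX24: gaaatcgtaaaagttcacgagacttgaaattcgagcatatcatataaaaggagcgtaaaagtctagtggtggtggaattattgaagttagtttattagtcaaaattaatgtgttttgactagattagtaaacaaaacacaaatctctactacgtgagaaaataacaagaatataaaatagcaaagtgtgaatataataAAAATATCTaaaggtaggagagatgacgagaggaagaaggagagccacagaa
PRR7: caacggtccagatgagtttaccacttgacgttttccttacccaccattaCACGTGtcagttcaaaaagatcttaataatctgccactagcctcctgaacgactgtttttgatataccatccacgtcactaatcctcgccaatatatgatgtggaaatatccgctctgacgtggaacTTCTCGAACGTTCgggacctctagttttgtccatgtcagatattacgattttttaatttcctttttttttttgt

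TOC1, PRR5 and BBX24 carried the evening element and PRR7 a G-box and a heat shock element. PRR5 also had a CCA1 binding site beside its evening element. Each window shown held a match, so they do not stand for the genes higher at ZT66 as a whole, whose shares follow. The evening element stood in 4 of 62 promoters of genes higher at ZT66 (6.45%), against 2.36% of all 27443 promoters of that length, and the CCA1 binding site in 8 of 62 (12.9%), against 6.69% of all. Among genes lower at ZT66 the shares were 3.31% and 5.79% of 121. The G-box was found in 9.68% of the genes higher and in 8.26% of those lower at ZT66, against 6.49% of all promoters. A heat shock element was found in 1 of 62, that of PRR7, against 0.386% of all. These are matches of letters in a short window and were not tested.

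The B-box and CDF list, which links the clock to flowering and light responses, held 4 of 26 genes with a higher effect at ZT66. None had a lower one, where 0.308% of all genes were higher and 0.598% lower. COL5 (AT5G57660) stood at 162, 155 and 177 CPM in heated libraries and at 6.95, 8.54 and 7.77 CPM in controls, higher than at the other times by 2.35 ± 0.16 (adjusted p = 2.64e-17). BBX28 (AT4G27310) was higher by 2.26 ± 0.33, CDF3 (AT3G47500) by 0.90 ± 0.15 and BBX24 (AT1G06040) by 0.73 ± 0.11. In all 4 the control level at ZT66 was lower than at the other times, by 2.86 ± 0.14 for COL5 and 1.23 ± 0.09 for BBX24. CIPK20 (AT5G45820), a kinase that acts with calcium sensors, stood at 8.71, 8.84 and 12.2 CPM in heated libraries and at 0.556, 0.518 and 0.655 CPM (4, 4 and 7 counts) in controls, and its difference was 3.18 ± 0.32 (adjusted p = 9.90e-11).

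Of 23 light-harvesting and Rubisco genes 9 were higher at ZT66 and none was lower, where 0.308% of all genes were higher and 0.598% lower. They were the antenna genes LHCB1.1, LHCB1.2, LHCB1.5, LHCB2.1, LHCB2.2, LHCB3 and LHCB4.2 of photosystem II and LHCA1 and LHCA4 of photosystem I, with differences of 0.59 to 1.29. LHCB2.2 (AT2G05070) stood at 251, 274 and 166 CPM in heated libraries and at 70.9, 77.4 and 78.6 CPM in controls (difference 1.29 ± 0.17, adjusted p = 7.21e-07). Its control mean at ZT66, 75.6 CPM, lay near the low end of the 21.4 to 1789 CPM of the other control times, and its heated mean, 231 CPM, near the low end of the 83.9 to 1721 CPM of the other heated groups. LHCB3 (AT5G54270) stood at 1027, 1107 and 789 CPM in heated libraries and at 274, 302 and 282 CPM in controls (difference 1.07 ± 0.13, adjusted p = 1.45e-08). Light-harvesting genes had their highest heat effect in the neighbouring group at ZT63, 1.95 for LHCB2.2 and 2.14 for LHCB3, so ZT66 was not an extreme for them. The call of LHCB2.1 was lost when some single libraries were left out. Against the mean of ZT60, ZT63 and ZT69 alone, LHCB1.5, LHCB2.2 and LHCB3 kept their calls and the others of the 9 lost theirs. LHCB1 and LHCB2 genes are near-identical copies, among which the counting may have split reads.

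Genes lower at ZT66 included 8 of the 31 large chaperones, where 0.598% of all genes were called lower, and none of the list was higher. Against the mean of ZT60, ZT63 and ZT69 alone none of these 8 was called, and CLPB4 was not called against ZT54 either. All 8 rose in the heat at ZT66. HSP70-3 (AT3G09440), a cytosolic HSP70, stood at 3120, 3231 and 3875 CPM in heated libraries and at 136, 130 and 147 CPM in controls. Its log2 fold change of 4.62 ± 0.15 was under the 4.72 (ZT69) to 6.01 (ZT54) of the other times, a difference of -0.89 ± 0.14 (adjusted p = 5.22e-05), and it came with controls higher by 0.47 ± 0.10 and heated levels lower by 0.42 ± 0.10. CLPB3 (AT5G15450), the disaggregase of the chloroplast, stood at 2507, 2530 and 3408 CPM in heated libraries and at 76.6, 70.3 and 74.1 CPM in controls (difference -0.80 ± 0.16, adjusted p = 0.00127). HSP90.3 (AT5G56010) differed by -0.79 ± 0.15, the mitochondrial disaggregase CLPB4 (AT2G25140) by -0.75 ± 0.17, the chloroplast cpHSC70-2 (AT5G49910) by -0.70 ± 0.10, HSP70-1 (AT5G02500) by -0.63 ± 0.13 and the J-domain co-chaperones J2 (AT5G22060) and J3 (AT3G44110) by -0.54 ± 0.11 and -0.47 ± 0.11. The repressor HSFB2B (AT4G11660) was the single heat shock factor called, at -0.58 ± 0.15 (adjusted p = 0.042). The calls of CLPB4, HSP70-1, J2, J3 and HSFB2B were lost when some single libraries were left out, 5 of the 6 in the case of HSFB2B. Copies within the HSP70 and HSP90 families share sequence, so their reads may have been split.

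The chaperones with the largest fold changes were not called: HSP101 differed by 0.27 ± 0.68, HSP90.1 by 0.17 ± 0.71 and HSP70-4 by -0.39 ± 0.36. No small heat shock protein of 16 was called either, although 15 lay above 0, with a median difference of 1.53 in TRAP and 0.21 in total mRNA. Their heated levels at ZT66 differed from the other times by a median of -0.02 and their control levels by -1.58. Small heat shock protein messages took 0.00806% to 0.0121% of control counts at ZT66, whereas single TRAP control libraries at ZT48, ZT54, ZT57 and ZT69 reached 0.0867% to 0.171%. The part of these control libraries in the differences was not tested.

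Single genes of starch degradation (2 of 16 tested) and of reactive oxygen scavenging (1 of 9) were called lower and none higher, where 0.598% of all genes were called lower. BAM3 (AT4G17090), the beta-amylase that releases maltose from starch in chloroplasts, stood at 276, 292 and 329 CPM in heated libraries and at 428, 415 and 462 CPM in controls (log2 fold change -0.55 ± 0.14, adjusted p = 0.00114). At the other times its fold change ran between -0.15 (ZT63) and 1.45 (ZT51), a difference of -0.99 ± 0.15 (adjusted p = 6.00e-05). The control mean at ZT66, 435 CPM, was above the 79.2 to 316 CPM of the other control times. BAM9 (AT5G18670), of the same family, differed by -0.83 ± 0.19 (adjusted p = 0.0142). CAT2 (AT4G35090), a catalase of peroxisomes, stood at 2045, 2073 and 2483 CPM in heated libraries and at 1538, 1468 and 1489 CPM in controls, a difference of -0.88 ± 0.21 (adjusted p = 0.0311) with controls at ZT66 higher than at the other times by 1.42 ± 0.13. Among genes outside the lists, the cis-prenyltransferase cPT4 (AT5G58770) differed by -1.10 ± 0.14, with heated libraries at 2060, 2041 and 2286 CPM and controls at 140, 117 and 104 CPM. The chloroplast thioredoxin ACHT4 (AT1G08570) differed by -1.12 ± 0.12, the glucosyltransferases DOGT1 (AT2G36800) and UGT73C6 (AT2G36790) by -1.16 ± 0.21 and -1.09 ± 0.25, the early light-induced ELIP2 (AT4G14690) by -1.38 ± 0.31 and the ubiquitin ligase RIN3 (AT5G51450) by -1.11 ± 0.23. The calls of BAM9, CAT2, UGT73C6 and ELIP2 were each lost without at least 2 of the 6 libraries when these were left out singly. Against the mean of ZT60, ZT63 and ZT69 alone, cPT4 and ACHT4 kept their calls and the other genes of this paragraph lost theirs.

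Contrasts with fewer times use the same ZT66 libraries, and their times are part of the mean on which the 65 and 126 genes were called, so a kept sign there is largely fixed by that choice and is no sign of stability. Against the mean of ZT60, ZT63 and ZT69, 13 of the 65 and 8 of the 126 genes were called (0.0617% of all genes were called higher and 0.038% lower). The median differences of the 65 and the 126 were 0.64 and -0.44 in place of 0.92 and -0.65. Of 61 results between times for genes named, 37 lost their call there. Calls kept were those of PIF4, PRR7, LNK1, LNK3, LNK4, GI, RVE1, COL5, CIPK20, LHCB1.5, LHCB2.2, LHCB3, ACHT4 and cPT4. Against ZT54 alone, 12 h away, 58 of 65 and 103 of 126 were called, against 1.67% of all genes, 0.655% higher and 1.01% lower. In total mRNA the same contrast gave 74 called genes of 22256 (0.332%; 46 without control total mRNA library 1), and of the genes called in TRAP 61 of the 65 higher and 122 of the 126 lower had the same sign there, with 25 and 30 of them called. PIF4 differed by 3.18 ± 0.26 in total mRNA, LNK1 by 2.03 ± 0.17, PRR7 by 2.25 ± 0.20 and LHCB2.2 by 1.32 ± 0.19, close to their TRAP values. Those not called in total mRNA included GI at 0.96 ± 0.27 (adjusted p = 0.0833), TOC1 at 0.37 ± 0.14 (adjusted p = 0.377) and CLPB4 at 0.12 ± 0.31 (adjusted p = 0.986).

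The third comparison asked where ribosome-bound and total mRNA parted at ZT66, by testing the TRAP heat effect minus the total mRNA heat effect. Of 22256 genes 434 passed (1.95%), 153 higher in TRAP (0.687%) and 281 lower in TRAP (1.26%). Without control total mRNA library 3 the count was 256, and with every library thinned to the smallest total it was 91. With chloroplast and mitochondrial genes left out before scaling, 117 were higher and 357 lower in TRAP. In total mRNA itself 43.1% of genes changed in the heat at ZT66. In the same fit 24.1% of genes rose and 24.3% fell in TRAP. Among the 153, 60 rose in both kinds of RNA, 48 rose in TRAP and were not called in total mRNA, 31 fell in total mRNA and were not called in TRAP, 8 fell in both and 6 rose in TRAP while they fell in total mRNA. Among the 281, 91 rose in total mRNA and were not called in TRAP, 75 fell in TRAP and were not called in total mRNA, 50 fell in TRAP while they rose in total mRNA, 47 rose in both and 18 fell in both.

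EGY3 (AT1G17870), a chloroplast protein induced by heat, stood at 1841, 1849 and 2231 CPM in heated and 7.92, 7.38 and 9.55 CPM in control TRAP libraries. In total mRNA it stood at 1151, 1069 and 1068 CPM in heated and 19.0, 27.6 and 20.1 CPM in control libraries. The TRAP effect exceeded the total mRNA effect by 2.202 ± 0.400 on the log2 scale (adjusted p = 0.000202). DEG14 (AT5G27660), a serine protease, exceeded it by 2.205 ± 0.466 (adjusted p = 0.00226), at 123, 132 and 159 CPM in heated and 6.39, 6.60 and 7.86 CPM in control TRAP libraries against 263, 321 and 306 CPM in heated and 63.1, 113 and 46.4 CPM in control total mRNA libraries. RIK (AT3G29390), an RNA-binding KH protein, stood at 32.5, 37.3 and 32.2 CPM in heated and 8.06, 8.54 and 6.46 CPM in control TRAP libraries, whereas total mRNA had 31.3, 30.1 and 27.3 CPM and 22.0, 21.9 and 22.9 CPM (difference 1.74 ± 0.24, adjusted p = 8.19e-08). RIK rose by 2.15 ± 0.17 in TRAP and by 0.42 ± 0.17 in total mRNA, and heated and control libraries did not overlap in either.

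The mitochondrial chaperonin pair HSP60 (AT3G23990) and CPN10 (AT1G14980), which form a folding cage, gained more in TRAP than in total mRNA by 0.75 ± 0.19 and 0.62 ± 0.17. They were the 2 called members of 31 large chaperones, where 0.687% of all genes were called higher and 1.26% lower in TRAP. PCNA1 (AT1G07370), the sliding clamp of DNA replication, differed by 1.16 ± 0.34 (adjusted p = 0.0449) and was the single called gene of 20 of its list, at 8.71, 9.33 and 6.53 CPM in heated and 3.61, 4.27 and 4.31 CPM in control TRAP libraries. CDF5 (AT1G69570) and BBX24 differed by 1.73 ± 0.46 and 0.61 ± 0.15. CML42 (AT4G20780), a calmodulin-like protein, and NAC010 (AT1G28470), a NAC factor, differed by 2.03 ± 0.58 and 1.96 ± 0.51, with at most 63 counts for CML42 and 51 for NAC010 in any library at ZT66. Each of the genes of this paragraph lost its call when some single library was left out, and CDF5 differed by 1.15 without control total mRNA library 3.

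Of 30 clock genes 3 were called lower in TRAP and 1 higher, where 1.26% of all genes were lower and 0.687% higher. Over the whole list 14 of 30 differences lay above 0, with a median of -0.004. CCA1 stood at 62.9, 56.7 and 75.1 CPM in heated and 27.8, 23.9 and 25.2 CPM in control TRAP libraries, and at 148, 151 and 214 CPM in heated and 25.0, 20.1 and 22.3 CPM in control total mRNA libraries. The message thus rose in both, by 1.33 ± 0.14 in TRAP and 2.89 ± 0.15 in total mRNA, with a difference of -1.55 ± 0.21 (adjusted p = 5.15e-08). TOC1 rose in total mRNA, at 44.2, 50.4 and 42.6 CPM in heated and 29.8, 30.5 and 23.9 CPM in control libraries (0.74 ± 0.13), but not in TRAP, a difference of -0.90 ± 0.18 (adjusted p = 0.000765). LNK2 stood at 12.2, 15.71 and 15.5 CPM in heated and 12.9, 12.6 and 9.17 CPM in control TRAP libraries, which overlap, and at 65.96, 63.9 and 78.9 CPM in heated and 28.4, 26.48 and 25.9 CPM in control total mRNA libraries (difference -1.02 ± 0.26, adjusted p = 0.0199). RVE8 (AT3G09600), an activator that works with the LNK proteins, fell in total mRNA, with a log2 fold change of -1.07 ± 0.18, and had a TRAP effect of -0.12 ± 0.16, a difference of 0.96 ± 0.24 (adjusted p = 0.0135). PIF4, LNK1, PRR7 and COL5, which led the contrast with other times, did not pass here, with differences of 0.41 ± 0.39, -0.10 ± 0.22, -0.31 ± 0.30 and 0.57 ± 0.26. The calls of LNK2 and RVE8 were lost when some single libraries were left out, while those of CCA1 and TOC1 were kept.

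PHV (AT1G30490), a class III HD-ZIP factor that sets the upper side of leaves, was among the 50 messages that fell on ribosomes while their total level rose. PHV stood at 9.18, 5.65 and 10.0 CPM in heated and 18.9, 16.95 and 17.1 CPM in control TRAP libraries, but at 25.7, 25.4 and 30.5 CPM in heated and 13.0, 17.3 and 11.6 CPM in control total mRNA libraries. Heated and control libraries did not overlap in either kind of RNA, and they stood in opposite order. The difference was -2.12 ± 0.26 (adjusted p = 4.79e-09). BBX27 (AT1G68190) was not called in TRAP, with an effect of 0.15 ± 0.17, and rose in total mRNA by 1.09 ± 0.17, a difference of -0.93 ± 0.24 (adjusted p = 0.0157). The receptor-like protein gene RLP13 (AT1G74170) differed by -3.28 ± 0.63, the phosphatase PAP28 (AT5G57140) by -2.28 ± 0.50 and the kinase BSK4 (AT1G01740) of brassinosteroid signalling by -2.07 ± 0.55, each with 39 counts or fewer in every library at ZT66 and RLP13 with 2, 2 and 3 counts in the heated TRAP libraries. The calls of BBX27 and BSK4 were lost when some single libraries were left out, and those of PHV, RLP13 and PAP28 were kept.

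**Figure D4:**
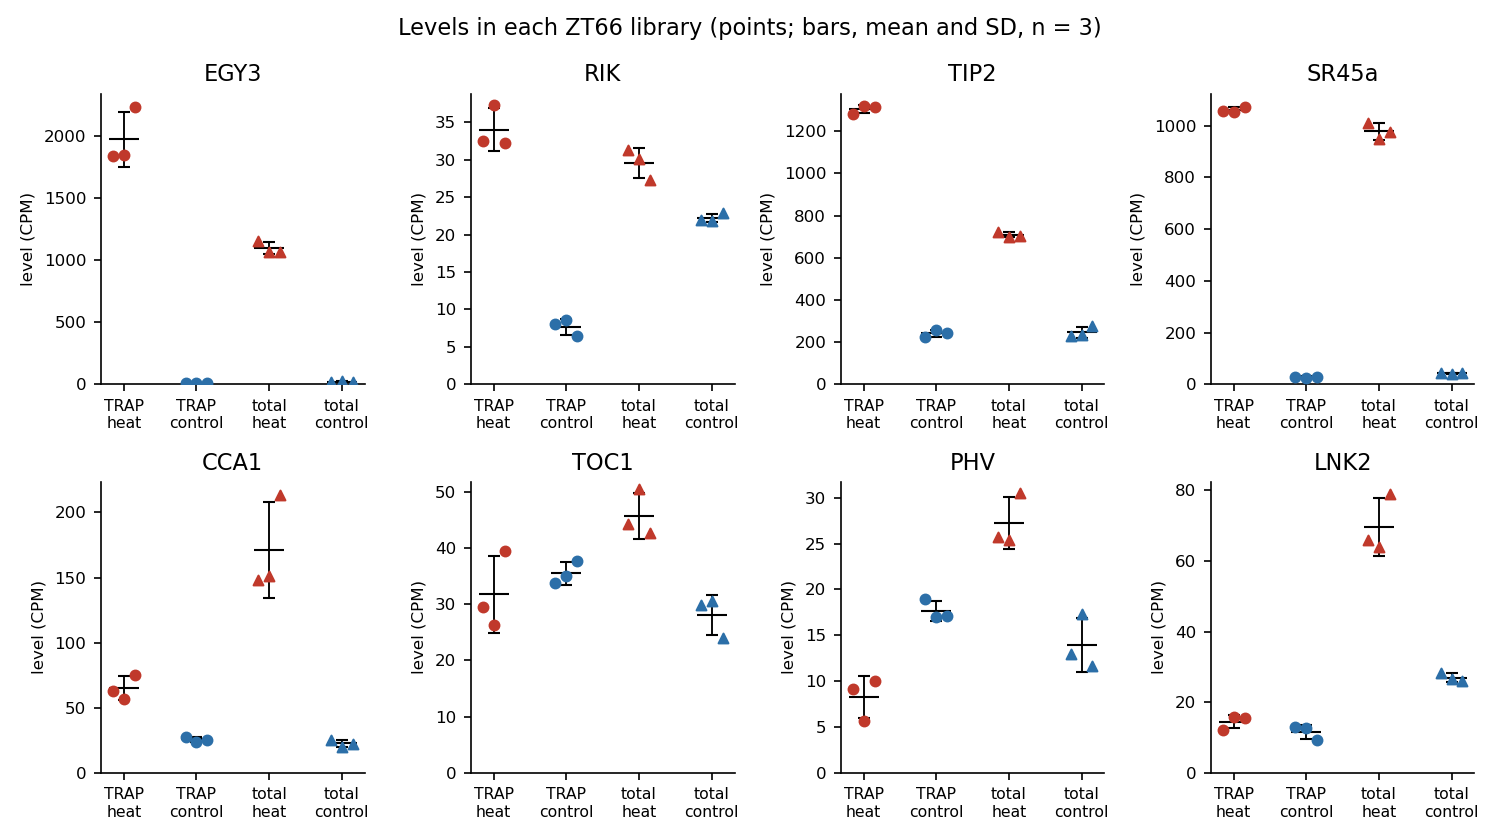
Levels in CPM of 8 genes in the 12 libraries at ZT66, in the order heated TRAP, control TRAP, heated total and control total mRNA (points are libraries, bars are mean and SD, n = 3). PHV is lower in heated than in control TRAP libraries and higher in heated than in control total mRNA libraries, and the heated and control TRAP libraries of TOC1 and LNK2 overlap.

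Genes whose effect was lower in TRAP had longer and more divided coding regions than genes at large, features that the rule did not use. Their median was 9 introns and 1737 coding bases over 274 genes with a model, against 3 introns and 1140 bases over all 20361 genes tested with one, and 2.92% had no intron, against 15.6%. Genes higher in TRAP had a median of 3 introns and 1210.5 coding bases. Genes higher at ZT66 than at other times had a median of 2 introns and those lower 4. The called genes were not matched to genes at large for count level, which bears on which genes can be called. The part of count level in these features was not tested.

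Of the 153 genes higher in TRAP 143 were also called higher over the mean of the 7 other times (20.5% of all genes were), and of the 281 lower in TRAP 271 were also called lower (13.3% of all genes), with none called the other way. The sign was the same at each of the 7 other times in 133 of the 153 and 262 of the 281. The difference of the differences, TRAP minus total at ZT66 minus its mean at the other times, passed for 0 of 22256 genes by edgeR, with 773 at an unadjusted p below 0.05, and for 0 by DESeq2, with 713. The median SE of this contrast was 0.36 on the log2 scale, so small differences between times could go uncalled. The median gap of the 153 genes was 0.89 at ZT66 and 0.62 over the other times, and that of the 281 was -1.09 and -0.89. Both sets were chosen by their gap at ZT66. For PHV the gap was -2.12 at ZT66 and -2.199 ± 0.090 over the other times, for EGY3 2.202 and 1.95 ± 0.15, for CCA1 -1.55 and -1.41 ± 0.08 and for RIK 1.74 and 1.77 ± 0.08.

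**Figure D5:**
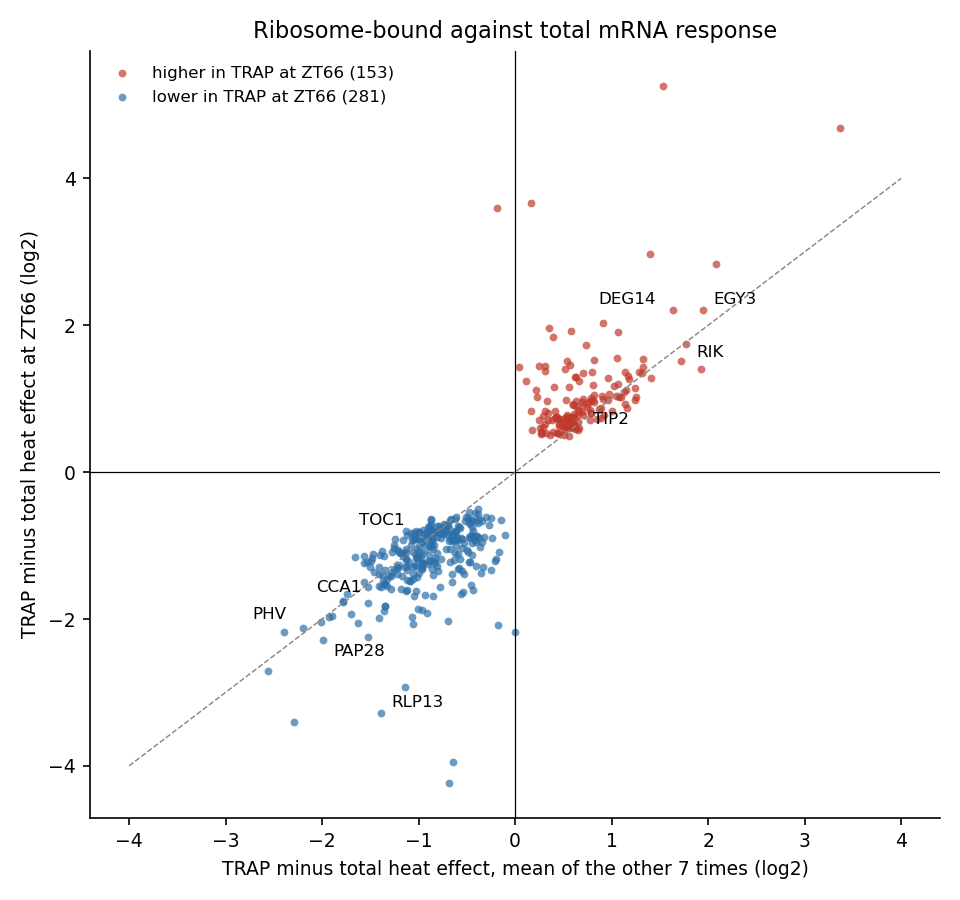
Points are the 434 genes called between TRAP and total mRNA at ZT66, with the TRAP minus total heat effect (log2) averaged over the 7 other times on the horizontal axis and at ZT66 on the vertical axis. Most points lie in the upper right (153 higher in TRAP, red) and lower left (281 lower in TRAP, blue), on the same side of 0 at ZT66 and at the other times.

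Both differences, from other times and from total mRNA, passed for 19 genes. They are 9.95% of the genes called between times, where 1.95% of all genes were called between kinds of RNA. They are 4.38% of those called between kinds of RNA, where 0.906% of all genes were called between times. In 13 the signs were the same, 10 of them higher in both. Both differences hold the same TRAP libraries at ZT66, so part of the overlap and of the shared sign is built in. The 10 include the pair AT5G01210 and AT5G01215, whose values were the same and whose reads may have been counted for both. TIP2 (AT3G26520), a water channel of the vacuole, stood at 1282, 1318 and 1313 CPM in heated and 224, 257 and 245 CPM in control TRAP libraries, and was higher than at the other times by 0.59 ± 0.13 and than in total mRNA by 0.91 ± 0.16. BBX24 was also higher in both. CYP83B1 (AT4G31500) and CYP79B3 (AT2G22330), enzymes on the path from tryptophan to indolic glucosinolates and auxin, were higher in both as well, and both fell in the heat at ZT66. CYP83B1 fell by 0.79 ± 0.10 in TRAP at ZT66, against -1.54 (ZT54) to -0.998 (ZT69) at the other times and -1.58 ± 0.15 in total mRNA at ZT66. CYP79B2 (AT4G39950) was higher than at other times by 1.03 ± 0.15 (adjusted p = 3.77e-06), and its heated level by 1.03 ± 0.12, whereas its control level differed by 0.00 ± 0.09. SR45a (AT1G07350), a splicing regulator, stood at 1059, 1053 and 1072 CPM in heated and 29.5, 22.4 and 28.8 CPM in control TRAP libraries, and was lower than at the other times by 0.72 ± 0.13 yet higher than in total mRNA by 0.78 ± 0.18. TIP2 lost its call between times without control TRAP library 1, and AT5G01210 without that library or heated TRAP library 1. CYP83B1 lost that call without control TRAP library 1 or 3 or heated TRAP library 2, and its call between kinds of RNA without heated total mRNA library 3. CYP79B3 lost both calls without most of the single libraries, and SR45a kept both without each of them. TOC1 was the reverse, higher than at the other times and lower than in total mRNA.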

How the data were processed

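Per the labels' protocols, seedlings of 1 transgenic line were sampled, polyadenylated RNA from whole lysate (total mRNA) or from tagged ribosomes (TRAP) was made into libraries, and the authors deposited 1 table of raw counts per gene for 38194 genes. The submitters' processing notes name cutadapt, FastQC, HISAT2 2.2.0 and TAIR10. No source used here names the counting tool or its strand setting.

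Every column was matched to a sample by its title. Counts were tested as deposited with edgeR 4.0.16 (R 4.3.3): TMM scaling, genes kept at a minimum count of 10 and a minimum total of 15, group means as the model, and the robust quasi-likelihood test with Benjamini-Hochberg adjustment over all genes tested. TRAP contrasts came from a fit of the 50 TRAP libraries of the time course, and contrasts with total mRNA from a fit of all 100, so a heat effect in TRAP differs slightly between the fits. The 48 libraries of a recovery experiment were not used here. Standard errors are the log2 difference over the square root of the F statistic. Levels are CPM scaled by TMM. CPM are not per gene length, so they are compared between libraries and not between genes. Where levels are low, the counts behind them are given, since their number limits the precision.

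The alternatives were DESeq2 1.42.0, RLE scaling, a minimum count of 1, a replicate block, a block of TRAP and total libraries of 1 number, thinning to the smallest total, organelle genes left out, only the groups compared, other sets of times, and each ZT66 library left out in turn. Same-numbered libraries, heated with control or TRAP with total, did not all deviate together, and the replicate number was not used as a block in the results.

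The genes, the 18 lists (314 genes) and the tests were chosen with earlier results of these data known. The genes named were, for each difference, the 10 highest and the 10 lowest called genes whose mean log2 CPM reached 1 and that had more than 3 counts in every ZT66 group, the 10 called in both differences with the largest smaller value, up to 4 called members of each list, and fixed clock, chaperone, growth and light-harvesting genes. Genes with no symbol were left out first. Lists of ribosomal protein and ribosome biogenesis genes were not run.

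Names, gene models and promoters came from RefSeq (TAIR10.1), to which 37751 identifiers matched. The fits were tested on simulated counts: of genes changed 2-fold and 4-fold, 87 and 96 of 100 were recovered for the heat effect in TRAP, 85 and 96 for its difference from other times (19913 genes each) and 49 and 90 for TRAP minus total mRNA (21238 genes), with 8, 10 and 8 unchanged genes called. The simulation used mean levels and the trended spread of controls, with no heat effect in other groups and no deviating library. Changed genes were drawn above a minimum level in both kinds of RNA, so these rates need not hold for the real libraries. Figures were drawn with matplotlib 3.10.9 (Python 3.11.15).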

Additional observations from a re-analysis of the deposited data

Results flagged for a closer look

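Heat effects that differed between groups, by a test of the difference itself (edgeR with adjustment by Benjamini and Hochberg), were found in 3 comparisons. The TRAP heat effect at ZT66 differed from that at the other times for 191 genes, the TRAP effect differed from the total mRNA effect at ZT66 for 434 genes, and the total mRNA effect at ZT66 differed from the other times for 74 genes.

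Genes that differed in both ways were BBX24 (0.731 from the other times and 0.614 from total mRNA, on the log2 scale), TIP2 (0.589 and 0.909), CYP83B1 (0.463 and 0.806), CYP79B3 (0.515 and 0.720) and AT5G01210 (0.682 and 1.296), all higher in both, and SR45a (-0.719 and 0.780) and TOC1 (0.488 and -0.897), which had opposite signs. Both differences hold the same TRAP libraries at ZT66, so part of a shared sign is built in. The TOC1 call between times was lost without heated library 1 or 3 or any control library. Without some single library, calls between times were also lost for AT5G01210, TIP2, CYP83B1 and CYP79B3. The same held for the calls of BBX24, CYP83B1 and CYP79B3 between TRAP and total mRNA. SR45a kept both of its calls.

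Effects of opposite direction were found for PHV (TRAP minus total mRNA, -2.116), ATHB-15 (-0.996) and RLP13 (-3.278), which fell in TRAP and rose in total mRNA at ZT66. They were also found for BAM3 (ZT66 minus the other times, -0.987), BAM9 (-0.832) and RIN3 (-1.108), which fell in TRAP at ZT66, while their mean effect over the other times lay above 0. None of BAM3, BAM9 and RIN3 was called against the mean of ZT60, ZT63 and ZT69 alone. The call of BAM9 was also lost without some single libraries and that of RIN3 by DESeq2. RLP13 rests on 2, 2 and 3 counts in the heated TRAP libraries. The call of ATHB-15 was lost without heated total mRNA library 1.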

How the results depend on the processing

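Alternatives for the control level, the heated level and the 2 total mRNA contrasts were chosen after seeing the data. Of 152 results for single genes, 92 kept their side of the threshold under every alternative, and no called result changed direction under any. The count for the heat effect in TRAP (10821) lay between 9439 and 10856 under all alternatives. DESeq2 called 287 genes in place of 191 between times and 138 in place of 74 in total mRNA. Against ZT60, ZT63 and ZT69 alone, 21 genes passed between times, 12 in total mRNA, 1630 for the control level and 1048 for the heated level. Against ZT54 alone 351 passed. Thinned to the smallest total, 91 in place of 434 passed between TRAP and total mRNA and 5578 in place of 9585 for total mRNA, at fewer counts by construction. Leaving out 1 library at a time gave 9586 to 10101 genes for the heat effect in TRAP, 94 to 250 between times, 2569 to 4006 for the control level, 1843 to 3329 for the heated level, 7898 to 9597 for total mRNA, 256 to 385 between TRAP and total mRNA, 46 to 84 between times in total mRNA and 0 for the difference of differences. Of the genes named, 18 of 61 results between times and 14 of 34 between TRAP and total mRNA lost significance without some single library, TOC1, CHE, HSFB2B, CYP79B3 and PCNA1 among them. The calls gained were COL5 (1.35, thinned) and HSP101 (1.43, only the groups compared), in TRAP minus total mRNA. Except where a smaller sample or count is named, the cause was not tested.

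With the replicate block 10822 genes passed for the heat effect in TRAP, 192 between times, 458 between TRAP and total mRNA and 0 for the difference of differences, and no call of a gene named between these groups changed. Same-numbered heated and control TRAP libraries at ZT66 had correlations of 0.066 to 0.09, against a highest of 0.025 to 0.055 with another number. Same-numbered TRAP and total libraries at ZT66 had 0.0997 to 0.195 in controls, against at most -0.0027 with another number. In heated libraries these were 0.0063 to 0.108, against up to 0.032. Over all times 28 of 46 pairs of TRAP and total were over 0.1 (median 0.13). Since not all pairs deviated together, the numbers were not taken as pairs in the results. A block of TRAP and total libraries of the same number gave 765 between TRAP and total mRNA (359 higher, 406 lower). The RLE scaling moved the median over all genes by less than 0.1 in every contrast.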

Other observations

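Groups not described above also moved on ribosomes at ZT66. Of 13 rapidly induced stress transcription factors 10 rose and none fell, with a median log2 fold change of 2.95 against -0.08 over all genes, where 25% rose and 26.4% fell. The zinc finger repressor ZAT12 (AT5G59820) stood at 59.6, 50.3 and 61.0 CPM in heated TRAP libraries and at 1.39, 1.55 and 1.50 CPM in controls (5.24 ± 0.20, adjusted p = 7.97e-32 by edgeR), and its relative ZAT10 (AT1G27730) rose by 4.15 ± 0.22. Of 16 abscisic acid genes 11 rose and 2 fell, with NCED3 (AT3G14440), a key enzyme of its synthesis, higher by 2.02 ± 0.19. Of 11 cold and dehydration genes 6 rose and 1 fell and of 9 genes that remove reactive oxygen 6 rose and 1 fell. The 16 starch degradation genes, of which 6 rose and 4 fell, lay near the shares of all genes. None of the stress factor, abscisic acid or cold lists held a gene called between ZT66 and the other times or between TRAP and total mRNA.

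The lists below were chosen after their values were seen and are given as descriptions. Over all genes 25% rose and 26.4% fell in TRAP at ZT66, and 0.308% had a higher effect than at the other times. Between kinds of RNA 0.687% of all genes were higher and 1.26% lower in TRAP. Of 22 aquaporins tested, channels that pass water through membranes, 17 rose and 1 fell in TRAP at ZT66, and 5 were higher in TRAP than in total mRNA (0.687% of all genes were). RD28 (AT2G37180) stood at 1499, 1566 and 1455 CPM in heated and 19.2, 23.4 and 17.04 CPM in control TRAP libraries, and at 693, 722 and 654 CPM in heated and 24.4, 28.8 and 26.7 CPM in control total mRNA libraries (difference 1.54 ± 0.25, adjusted p = 1.98e-05 by edgeR). RD28 and its neighbour PIP2B are close copies, whose reads may have been divided. Of 20 SR proteins, which steer splicing, 15 rose and 2 fell, and 4 were higher in TRAP than in total mRNA. SR30 (AT1G09140) stood at 1183, 1207 and 1073 CPM in heated and 25.9, 27.2 and 21.8 CPM in control TRAP libraries (difference from total mRNA 1.12 ± 0.19), and SCL33 (AT1G55310) differed by 1.02 ± 0.15. Of 5 class III HD-ZIP factors 4 fell in TRAP and none rose, and PHV and ATHB-15 (AT1G52150) were lower in TRAP than in total mRNA, ATHB-15 by -0.996 ± 0.207. ATHB-15 lost that call without heated total mRNA library 1. Over the other times the gaps were 1.15 ± 0.07 for SR30, 1.32 ± 0.09 for RD28 and -1.25 ± 0.07 for ATHB-15. Of 6 genes of indolic glucosinolate synthesis 4 fell and none rose in TRAP at ZT66, while 3 were higher than at the other times and 2 higher in TRAP than in total mRNA.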
